A study of Mus musculus with 18 samples.

Results

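Cohesin, the enzymes and subunits that load, hold and release it, and the DNA-binding factor Ctcf were followed through muscle cell differentiation in mouse cells with and without an overexpressed enhancer RNA. The 10 genes were chosen by name and are Smc1a, Smc3, Rad21, Stag1, Stag2, Nipbl, Wapl, Pds5a, Pds5b and Ctcf, out of 35275 genes with values. All 10 passed the filter on low values. Polyadenylated RNA was sequenced from C2C12 cells, a mouse myoblast line, here from a stock the labels call PAX7 negative. MUNC, an enhancer RNA made from DNA upstream of Myod1, has a spliced and an unspliced form; its spliced and genomic (unspliced) forms were each overexpressed. The 6 groups were control cells (labelled wild-type), cells overexpressing MUNC spliced and cells overexpressing MUNC genomic, each in serum-rich growth medium (GM) or after 3 days in differentiation medium with reduced horse serum (DM3), with 3 biological replicates per group and 18 libraries in all. How the overexpressing cells were made, whether they are clones, and what separates the replicates are not given in the sources used here, so p-values measure the spread between these samples. MUNC itself was not analysed here.

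Cohesin is a ring that holds DNA. Smc1a and Smc3 are its long arms, Rad21 closes them, and Stag1 or Stag2 binds Rad21 as alternative subunits. Nipbl loads the ring and drives it along DNA, Wapl opens it and releases it, Pds5a and Pds5b act with Wapl and with the acetylation that stabilises the ring, and Ctcf stops moving cohesin at its binding sites, which become anchors of chromatin loops. Cohesin also holds sister chromatids together until mitosis, and an enhancer RNA from the Myod1 upstream region has been reported to bind cohesin and bring it to Myog.

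Depth, recovered from the deposited values, was 38416702 to 68788327 reads per library, and the lowest count of any of the 10 genes in any library was 2935 reads, for Stag1. Levels are in FPM, reads divided by the library's size factor. The markers set limits on the cells as a model: in control cells Myod1 was at most 0.221 FPM, and in control DM3 Myog was 0.344 FPM ± 0.132 (SD, n = 3) and Myh3, an embryonic myosin, 0.444 FPM ± 0.0629 (SD, n = 3), so the DM3 controls carried the label myotubes with these defining markers near 0. Myf5, a myoblast regulator, was at 71.8 FPM ± 8.5 (SD, n = 3) in control GM. Ckm, Myh8 and Pax7 were also near 0 in the DM3 controls, each with a mean of at most 0.0444 FPM. Other muscle markers were not near 0. Mean Myf5 and Des were higher in the DM3 controls than in the GM controls, at 103 against 71.8 FPM and 77.5 against 24.2 FPM. Mean Tnnt2 was lower, at 17.0 against 52.0 FPM. Summed fibroblast markers (4 genes) were 11.3 to 36.5 FPM in control GM and 135 to 254 FPM in control DM3, summed macrophage markers (3 genes) were at most 0.58 FPM, and the endothelial pair reached 7.36 FPM with MUNC genomic and 0.602 FPM in control GM. Replicate 1 of MUNC spliced DM3 stood apart: its 12 cell cycle genes summed to 1287 FPM against 351 and 317 FPM in the other replicates, and its Myog was at 226 FPM against 52.6 and 41.0 FPM. In bulk RNA, fewer cells of a type and less RNA per cell cannot be told apart.

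Per kilobase of exon, which allows levels of different genes to be compared, the 10 transcripts differed widely. Rad21 ranked 1st and Smc3 2nd in every one of the 18 libraries, with means over the 18 libraries of 109 and 50.6 FPM per kb. Smc1a followed with a mean of 41.4 FPM per kb, but its rank ran from 3 to 5 by library. In control DM3 its mean was 25.6 FPM per kb, below Wapl at 27.3 and Stag2 at 26.8. Stag2, Nipbl, Wapl and Ctcf lay close together, at means of 24.9, 25.01, 25.03 and 22.8 FPM per kb. Pds5b at 12.9, Stag1 at 8.4 and Pds5a at 6.41 FPM per kb were 8th, 9th and 10th in all 18 libraries. Exon length here is the union of all annotated exons, so a gene with a long exon used by few transcripts is placed too low.

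Promoter windows were read for 7 of the 10 genes, the 250 bases before the RefSeq start (GRCm38.p6). Their median GC content was 71.2%, and that of all 27025 windows was 52%. The GC box GGGCGG, on either strand, lay in 7 of the 7 windows and in 32.94% of all windows. The letters CCAAT, on either strand, lay in 4 of the 7 (Smc1a, Stag1, Wapl and Pds5b) and in 34.46% of all windows. The E-box CAGCTG, the letters read by Myod1 and Myog, was in 0 of the 7 and in 12.77% of all, and TTTGGCGC, an E2F-type letter string, was in Pds5a only of the 7 and in 0.4366% of all. These matches describe the windows and say nothing on binding. A RefSeq start can differ from the GENCODE start. The Stag1 window, chromosome 9, 100643198 to 100643447, lies inside the GENCODE gene, which starts at 100597798. The Smc3 and Ctcf windows end at 53600395 and 105636537, just before the GENCODE starts at 53600398 and 105636568. Smc1a and Ctcf are shown because their transcripts fell on differentiation, and Wapl because its level was lower with MUNC spliced and did not pass the test on differentiation. Capitals mark the GC box and CCAAT, on either strand, and the windows are chrX:152016178-152016427, chr8:105636288-105636537 and chr14:34673678-34673927, each on the plus strand, 5′ to 3′.
Smc1a: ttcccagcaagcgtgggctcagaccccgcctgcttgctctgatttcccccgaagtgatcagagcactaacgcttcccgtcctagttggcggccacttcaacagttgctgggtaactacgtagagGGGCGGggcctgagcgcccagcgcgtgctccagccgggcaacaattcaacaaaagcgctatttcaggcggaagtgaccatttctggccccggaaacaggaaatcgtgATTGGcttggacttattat
Ctcf: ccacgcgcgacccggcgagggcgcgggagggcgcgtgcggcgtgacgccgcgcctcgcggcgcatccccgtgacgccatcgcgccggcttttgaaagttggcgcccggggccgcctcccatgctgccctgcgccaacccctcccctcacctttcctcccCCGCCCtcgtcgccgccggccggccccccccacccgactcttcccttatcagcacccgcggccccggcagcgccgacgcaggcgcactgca
Wapl: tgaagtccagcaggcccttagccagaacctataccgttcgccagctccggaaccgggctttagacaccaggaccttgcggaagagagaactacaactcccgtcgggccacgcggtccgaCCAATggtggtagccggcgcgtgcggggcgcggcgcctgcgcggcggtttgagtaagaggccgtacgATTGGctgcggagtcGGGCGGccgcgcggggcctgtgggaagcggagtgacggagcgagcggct

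Differentiation was the first comparison: DM3 against GM, made separately within control, MUNC spliced and MUNC genomic cells. In control cells 7 of the 10 genes fell and none rose by the test. The ring subunits Smc1a, Smc3 and Rad21, the alternative subunit Stag1, Pds5a, Pds5b and Ctcf fell, by 27.0% to 55.0% of their mean FPM in GM, while Stag2, Nipbl and Wapl did not pass the test. The median log2 change of the 10 genes was -0.72, and that of all 13869 genes tested was 0.02. All tests are limma on log2(FPM + 1), two-sided, with Benjamini-Hochberg adjustment over all genes tested, called at an adjusted p under 0.05. Of all tested genes 58.2% were called in control cells, and 28.6% were called lower.

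**Figure D1:**
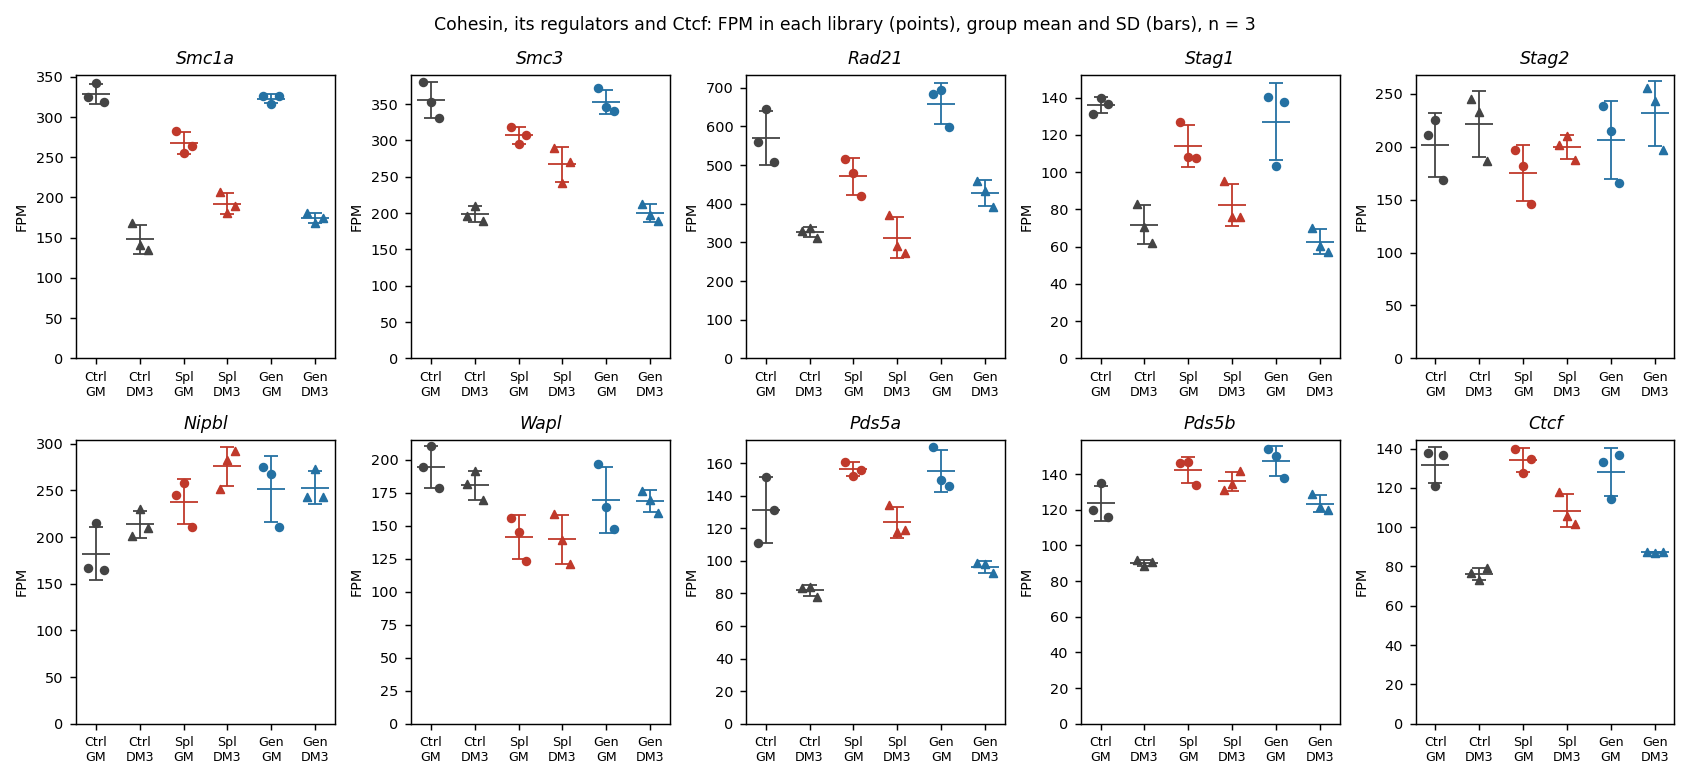
FPM (y axis, linear, from 0) of the 10 genes in control, MUNC spliced (Spl) and MUNC genomic (Gen) cells in GM (circles) and DM3 (triangles); points are libraries and bars are the mean and SD of 3. The 3 control DM3 libraries of Smc1a, at 135 to 168 FPM, lie under all 9 GM libraries of the gene, while the 6 groups of Stag2 overlap.

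Smc1a (GRCm38 chromosome X, 152016428 to 152062694, plus strand), an arm of the ring, was at 325, 342 and 319 FPM in control GM and 168, 141 and 135 FPM in control DM3. The groups lay far apart, and the fall of 1.15 on the log2 scale (SE 0.09, limma adjusted p = 1.3e-07) was the largest among the 10 genes in control cells. In MUNC genomic cells it was at 327, 316 and 326 FPM in GM and 181, 168 and 174 FPM in DM3, a fall of 0.88 (SE 0.09, limma adjusted p = 1.9e-06). MUNC spliced cells had 283, 256 and 264 FPM in GM and 207, 181 and 189 FPM in DM3. These groups were also apart, with a fall of 0.48 (SE 0.09, limma adjusted p = 0.000826).

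Smc3 (chromosome 19, 53600398 to 53645833, plus strand), the other arm, fell in control cells from 381, 353 and 332 FPM to 197, 210.1 and 189 FPM. In MUNC genomic cells it went from 372, 346 and 341 FPM to 213, 198 and 189 FPM. The sizes were close, a fall of 0.84 in control (SE 0.09, limma adjusted p = 1.77e-06) and of 0.82 with MUNC genomic (SE 0.09, limma adjusted p = 3.74e-06). MUNC spliced cells differed: 319, 295 and 307 FPM in GM and 289, 241 and 271 FPM in DM3 gave a change of -0.20 (SE 0.09, limma adjusted p = 0.0907) that did not pass, although the libraries did not overlap. Without replicate 1 of MUNC spliced DM3, the change was -0.26 and passed (limma adjusted p = 0.0459).

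Rad21 (chromosome 15, 51962240 to 51991747, minus strand), the closing subunit and the target of separase, fell in control cells from 559.7, 645 and 507 FPM to 329.6, 338 and 312 FPM (log2 change -0.80, SE 0.13, limma adjusted p = 6.73e-05). MUNC genomic cells held the highest group means in each medium, from libraries at 684, 694 and 599 FPM in GM and 459.7, 432 and 391 FPM in DM3, with a fall of 0.62 (SE 0.13, limma adjusted p = 0.000753). MUNC spliced cells had 515, 479 and 420.0 FPM in GM and 372, 291 and 272 FPM in DM3, a fall of 0.60 (SE 0.13, limma adjusted p = 0.00189). Rad21 thus fell in each of the 3 kinds of cell, and GM and DM3 libraries of a kind did not overlap.

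The alternative subunits parted. Stag1 (chromosome 9, 100597798 to 100959375, plus strand) fell in control cells from 131, 139.6 and 137 FPM to 83.0, 70.6 and 62.0 FPM (log2 change -0.92, SE 0.14, limma adjusted p = 3.31e-05). In MUNC genomic cells it fell from 140.4, 103 and 138 FPM to 70.2, 60.5 and 57.3 FPM (a decrease of 50.7%, limma adjusted p = 2.18e-05). In MUNC spliced cells 127, 108 and 107 FPM became 95.1, 76.1 and 75.8 FPM, a fall of 0.47 (SE 0.14, limma adjusted p = 0.0143). GM and DM3 libraries of Stag1 did not overlap in any of the 3 kinds of cell.

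Stag2 (chromosome X, 42149317 to 42277185, plus strand) overlapped between GM and DM3 everywhere. Control cells had 211, 226 and 168 FPM in GM and 245, 233 and 187 FPM in DM3, a log2 change of 0.14 (95% interval -0.20 to 0.47). MUNC spliced cells had 197, 182 and 146 FPM in GM and 202, 209.8 and 188 FPM in DM3, and MUNC genomic cells had 238, 215 and 166 FPM and 255, 243 and 197 FPM. The changes of 0.20 (interval -0.14 to 0.53) and 0.17 (interval -0.16 to 0.51) did not pass, and replicate 3 was the lowest library of Stag2 in 6 of 6 groups, as it was for Rad21 and Wapl.

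The loader Nipbl (chromosome 15, 8290617 to 8444463, minus strand) was at 167, 215 and 165 FPM in control GM and 202, 229.9 and 209.6 FPM in control DM3. The overlapping groups gave a log2 change of 0.24 (SE 0.13, limma adjusted p = 0.12), which passed once the replicate number was a block (limma adjusted p = 0.0446). Nipbl went from 245, 258 and 211 FPM to 252, 283 and 293 FPM in MUNC spliced cells (0.21, interval -0.05 to 0.48) and from 275, 268 and 211 FPM to 243, 273 and 243 FPM in MUNC genomic cells (0.02, interval -0.25 to 0.28), without passing.

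The release factor Wapl (chromosome 14, 34673928 to 34747983, plus strand; listed under its older symbol Wapal) was at 195, 211 and 178 FPM in control GM and 181, 192 and 169 FPM in control DM3, a log2 change of -0.10 (interval -0.36 to 0.16). Its MUNC spliced libraries were at 156, 145 and 123 FPM in GM and 159, 139 and 121 FPM in DM3 (-0.02, interval -0.28 to 0.24). Its MUNC genomic libraries were at 197, 164 and 148 FPM in GM and 176, 169.6 and 159.8 FPM in DM3 (0.00, interval -0.26 to 0.26). Medium moved Wapl in none of the 3 by the test, and the groups overlapped each time.

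The paralogs Pds5a and Pds5b, regulators that sit on the ring, fell less than the subunits Smc1a and Stag1 in control cells by their point estimates; the differences between genes were not tested. Pds5a (chromosome 5, 65605721 to 65698273, minus strand) went from 111, 151 and 131 FPM to 83.4, 84.1 and 78.0 FPM in control cells (log2 change -0.66, SE 0.10, limma adjusted p = 4.95e-05). With MUNC genomic it went from 169.7, 149.5 and 146 FPM to 98.8, 97.9 and 92.3 FPM (-0.68, SE 0.10, limma adjusted p = 5.53e-05). In MUNC spliced cells 161, 152 and 156 FPM became 135, 118 and 119 FPM, a smaller fall of 0.34 (SE 0.10, limma adjusted p = 0.0182). GM and DM3 libraries of Pds5a did not overlap in any of the 3.

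Pds5b (chromosome 5, 150673739 to 150810690, plus strand) went from 119.8, 135 and 116 FPM to 91.8, 88.2 and 90.5 FPM in control cells (-0.45, SE 0.08, limma adjusted p = 0.000197). In MUNC genomic cells 154, 150.1 and 138 FPM became 129, 122 and 120.0 FPM (-0.25, SE 0.08, limma adjusted p = 0.0153). MUNC spliced cells had 146, 147 and 134 FPM in GM and 131, 135 and 142 FPM in DM3, which overlapped (-0.06, interval -0.24 to 0.11). GM and DM3 libraries of Pds5b did not overlap in control and MUNC genomic cells.

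Ctcf (chromosome 8, 105636568 to 105682922, plus strand), which marks loop anchors, fell in control cells from 138, 121 and 137 FPM to 76.4, 72.9 and 79.2 FPM (log2 change -0.78, SE 0.09, limma adjusted p = 2.89e-06). MUNC genomic cells went from 133, 114 and 137 FPM to 87.5, 86.7 and 87.2 FPM (-0.55, SE 0.09, limma adjusted p = 0.000106). MUNC spliced cells went from 139.8, 128 and 135 FPM to 118, 106 and 102 FPM (-0.30, SE 0.09, limma adjusted p = 0.0147). The GM levels of the 3 kinds of cell overlapped, and the 3 DM3 levels did not.

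Over the whole set, 7 of 10 genes fell in MUNC genomic cells (51.4% of all tested genes called, 25.1% lower) and 5 of 10 in MUNC spliced cells (35.6% called, 18.4% lower), with none higher in either. The median log2 changes of the 10 genes were -0.58 and -0.25, and those of all tested genes were 0.02 and -0.01. In MUNC spliced cells the count went to 2 without GM replicate 1, without DM3 replicate 2 or without DM3 replicate 3, when Stag1, Pds5a and Ctcf were lost (limma adjusted p from 0.0513 to 0.0693). In MUNC genomic cells Pds5b was lost without GM replicate 1 (limma adjusted p = 0.0629) or DM3 replicate 3 (limma adjusted p = 0.0531).

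**Figure D2:**
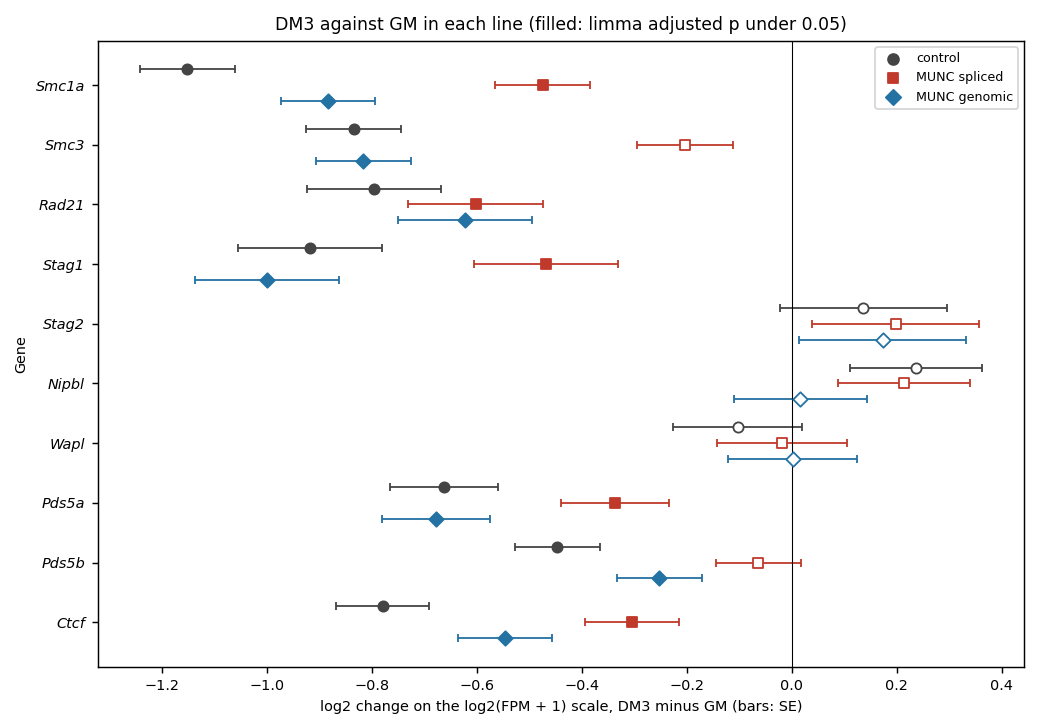
Log2 change of each gene from GM to DM3 (x axis) in control (circles), MUNC spliced (squares) and MUNC genomic (diamonds) cells; bars are SE and filled symbols passed limma at an adjusted p under 0.05. Stag2, Nipbl and Wapl sit around 0 with open symbols, and Smc1a runs from -1.15 in control to -0.48 in MUNC spliced cells.

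Other genes of the cohesin cycle and of related complexes were set beside the 10. In control cells 28.6% of all tested genes were called lower in DM3. Of 10 genes for loading, acetylation and release, 7 fell and 1 rose in control cells, with Esco2, an acetyltransferase of Smc3 (log2 change -3.38), and Espl1, the separase that cuts Rad21 (-3.24), falling furthest, and Mau2, the partner of Nipbl, the gene that rose (0.91). All 8 condensin genes fell, led by Smc2 (-3.42) and Ncapg2 (-3.17), as did all 6 genes of the Smc5/6 complex, led by Nsmce4a (-1.17) and Smc6 (-0.96). Among 9 looping and Ctcf-associated factors, Ldb1 rose (0.67), and Maz (-0.49) and Hnrnpu fell. The meiotic subunits Smc1b, Rad21l, Rec8 and Stag3 and the Ctcf paralog Ctcfl were at most 0.143 FPM in any library and were not tested. The 12 cell cycle genes all fell, with a median of -3.17 and Mki67 going from 548 FPM ± 119 (SD, n = 3) to 68.3 FPM ± 18.5 (SD, n = 3). Cell cycle genes fell and summed fibroblast markers, mostly Dcn, were higher in the same contrast, and their part in the result was not tested.

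In MUNC spliced cells the counts of genes lower in DM3 were 7 of 10 for loading, acetylation and release, 8 of 8 for condensin, 1 of 6 for Smc5/6, 1 of 9 for looping factors and 12 of 12 for the cell cycle. MUNC genomic cells gave 7 of 10, 8 of 8, 5 of 6, 1 of 9 and 12 of 12. The shares of all tested genes called lower were 18.4% in MUNC spliced and 25.1% in MUNC genomic cells. Ldb1, a looping factor, and Hdac8, the deacetylase of Smc3, rose in each. Mau2 rose in MUNC genomic cells (0.71) and did not pass in MUNC spliced cells (0.27).

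**Figure D3:**
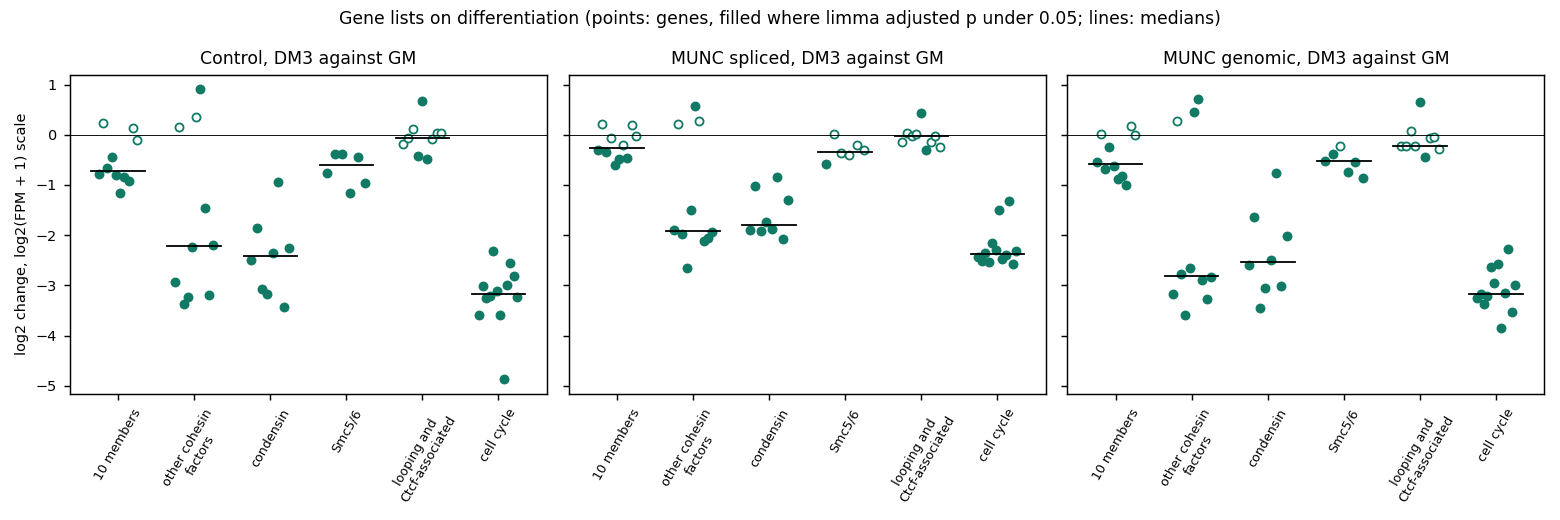
Log2 change from GM to DM3 (y axis) of the 10 genes and of 5 gene lists in control, MUNC spliced and MUNC genomic cells; points are genes, filled where limma's adjusted p was under 0.05, and lines are medians. In control cells the median of the 10 genes is -0.72, that of condensin -2.42 and that of the cell cycle genes -3.17.

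The second comparison set each MUNC form against control in the same medium, and the spliced and genomic results share the control libraries. In GM, MUNC spliced cells held more Nipbl and less Wapl and Smc1a, 3 of 10 genes against 35.5% of all tested genes; with the replicate number as a block it was 8 of 10 against 46.6%. MUNC genomic cells held more Nipbl and Pds5b, 2 of 10 against 26.8% called and 12.2% higher. The median log2 changes of the 10 genes were -0.21 and 0.01, and those of all genes were -0.02 and -0.03.

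Nipbl was 0.39 higher on the log2 scale in MUNC spliced GM (SE 0.13, limma adjusted p = 0.0249) and 0.46 higher in MUNC genomic GM (SE 0.13, limma adjusted p = 0.0121). The libraries overlapped in each case, with control replicate 2, at 215 FPM, above replicate 3 of either form, at 211 FPM, but Nipbl was above control in 3 of 3 same-numbered pairs for each form (limma adjusted p with the block = 0.00496 and 0.0019). Wapl was 0.46 lower in MUNC spliced GM (SE 0.12, limma adjusted p = 0.00866) with no overlap, and its call was kept in all leave-one-out fits. In MUNC genomic GM Wapl changed by -0.20 (interval -0.47 to 0.06) and overlapped control. Smc1a was 0.30 lower in MUNC spliced GM (limma adjusted p = 0.018) and Pds5b 0.25 higher in MUNC genomic GM (limma adjusted p = 0.0277), each without overlap.

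Without a block, the GM calls other than Wapl were near the threshold. With the replicate block, Smc1a in MUNC spliced GM was at limma adjusted p = 0.0036 and Pds5b in MUNC genomic GM at 0.00971. The leave-one-out and rescaled fits had no block. In MUNC spliced GM, Nipbl was lost without control replicate 1 or 3 or without spliced replicate 1 or 2 (limma adjusted p from 0.0699 to 0.101), and Smc1a without control replicate 2 or spliced replicate 2 (0.0571 and 0.0712) and on scaling libraries to equal sums (0.119) or by quantiles (0.307). Those scalings each called 3 genes higher and 1 lower, since Pds5a (0.37 under each, limma adjusted p = 0.00937 and 0.00703) and Pds5b (0.32 and 0.30, 0.00736 and 0.00878) were gained. In MUNC genomic GM, Nipbl and Pds5b were each lost without control replicate 1 or 3 or without genomic replicate 1 or 2, which left 0 calls. With the replicate number as a block, the 8 genes called in MUNC spliced GM were 3 higher and 5 lower: Smc3 (-0.21), Rad21 (-0.27) and Stag2 (-0.20) joined the lower genes, and Pds5a (0.26) and Pds5b (0.20) the higher, at limma adjusted p from 0.0208 to 0.0391. The 3 added lower genes were nearer 0 under quantile scaling without the block, at -0.03 for Smc3, -0.07 for Rad21 and -0.08 for Stag2, and were not called there.

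In DM3 the spliced form differed from control in 7 of the 10 genes, 6 higher and 1 lower, where 43.3% of all tested genes were called and 22.3% were higher. Pds5a and Pds5b were each 0.59 higher (SE 0.10 and 0.08, limma adjusted p = 0.000259 and 2.56e-05), which is 1.51 times control. Ctcf was 0.50 higher (SE 0.09, limma adjusted p = 0.000283), Smc3 0.42 higher (SE 0.09, limma adjusted p = 0.00134) and Smc1a 0.38 higher (SE 0.09, limma adjusted p = 0.00282). None of these 5 genes overlapped control in DM3, and 53% of all tested genes did not. Nipbl, 0.37 higher (SE 0.13, limma adjusted p = 0.0276), and Wapl, 0.38 lower (SE 0.12, limma adjusted p = 0.0213), also lay apart from control, so the loader was higher and the release factor lower in MUNC spliced cells in each medium. Rad21, Stag1 and Stag2 did not pass, at -0.08, 0.20 and -0.14. The median log2 change of the 10 genes was 0.37, and that of all genes 0.01.

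All 7 genes kept their calls without replicate 1 of MUNC spliced DM3, the library high in cell cycle genes. Of the 12 cell cycle genes 3 were called higher in MUNC spliced DM3 than in control, led by Mcm5 (1.94) and Mcm2 (1.27). That count is near the 22.3% of all tested genes called higher in this contrast. Of the 8 condensin genes 3 were called higher, led by Smc2 (1.196) and Ncapg2 (0.90). Summed cell cycle FPM was 294 to 536 in control DM3 and 317 to 1287 in MUNC spliced DM3. The part of these genes in the result was not tested. Summed fibroblast markers were 186 to 568 FPM in MUNC spliced DM3 and 135 to 254 FPM in control DM3. Most of the sum was Dcn (mean 396 FPM against 186 FPM), while Pdgfra was at 11.5 against 10.3 FPM and Lum at 2.67 against 1.34 FPM. Myog was 106 FPM ± 104 against 0.344 FPM ± 0.132 (SD, n = 3) and Myh3 79.8 FPM ± 84.7 against 0.444 FPM ± 0.0629 (SD, n = 3). Des had the lower mean in MUNC spliced DM3, 58.8 FPM ± 31.0 against 77.5 FPM ± 13.9 (SD, n = 3), with overlapping libraries. The part of these markers was not tested either. Nipbl was lost without control DM3 replicate 1 or 3 or without spliced replicate 2 or 3 (limma adjusted p from 0.0724 to 0.0862), and Wapl without control replicate 2 or spliced replicate 3 (0.0795 and 0.103). With the replicate block and all libraries, Nipbl was at limma adjusted p = 0.00575 and Wapl at 0.000989. Mau2, the partner of Nipbl in loading, was 0.46 lower (limma adjusted p = 0.0073).

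The genomic form differed from control in DM3 in 3 of the 10 genes, all higher, where 40.3% of all tested genes were called and 19.3% were higher. Pds5b was 0.45 higher (SE 0.08, limma adjusted p = 0.000317), with no overlap and its call kept in all leave-one-out fits. Rad21 was 0.38 higher (SE 0.13, limma adjusted p = 0.0244) and did not overlap control, and Smc1a was 0.24 higher (SE 0.09, limma adjusted p = 0.0418) and did. Rad21 was lost without control replicate 3 or genomic replicate 1 or 2 (limma adjusted p from 0.0648 to 0.092), and Smc1a without control replicate 2 or 3 or any genomic replicate (0.0601 to 0.179), with the compared groups alone (0.0747) and with no mean-variance trend (0.0532). Rad21 and Smc1a stayed called with the replicate block and all libraries (limma adjusted p = 0.00232 and 0.0106). With the replicate block Ctcf was also called (0.19, limma adjusted p = 0.028). Markers differed in the same contrast. In MUNC genomic and control DM3, Des was 898 FPM ± 99.5 and 77.5 FPM ± 13.9, and Myf5 29.4 FPM ± 8.17 and 103 FPM ± 7.59 (SD, n = 3). Myod1 was 18.4 FPM ± 3.99 and 0.0993 FPM ± 0.112, and Cdh5 4.20 FPM ± 0.682 and 0.110 FPM ± 0.110 (SD, n = 3). Pecam1, the other endothelial marker, went the other way, 0.0656 FPM ± 0.0685 and 0.158 FPM ± 0.0625 (SD, n = 3). In GM, Des was 476 FPM ± 145 and 24.2 FPM ± 8.37 (SD, n = 3). The part of these markers in the result was not tested.

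**Figure D4:**
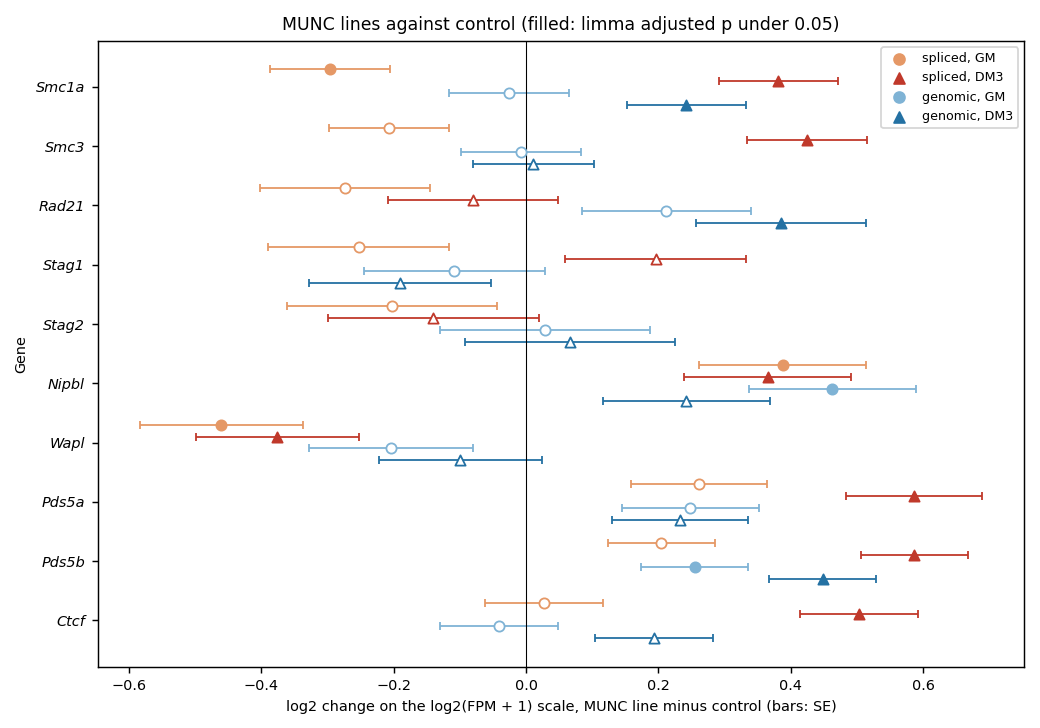
Log2 difference of each MUNC form from control (x axis) in GM (circles) and DM3 (triangles); bars are SE and filled symbols passed limma at an adjusted p under 0.05. The spliced DM3 triangles reach 0.59 for Pds5a and Pds5b, and Wapl is to the left of 0 in all 4 comparisons, filled only for the spliced form.

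The third comparison set the 2 forms against each other. In GM the spliced form held less Rad21 (log2 change -0.49, SE 0.13, limma adjusted p = 0.00739) and less Smc1a (-0.27, SE 0.09, limma adjusted p = 0.0279), 2 of 10 genes against 35.8% of all tested genes, with 16% lower. Neither gene overlapped between the forms in GM. The Smc1a call was lost under equal sums (limma adjusted p = 0.0572), quantiles (0.1) and leaving out spliced replicate 2 or 3 or genomic replicate 1 or 3 (0.0641 to 0.0964). The replicate block kept Smc1a (limma adjusted p = 0.00618). It added Smc3 (-0.20), Stag2 (-0.23) and Wapl (-0.26) at limma adjusted p from 0.0145 to 0.0308, for 5 of 10 genes against 47% of all tested genes.

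In DM3 the forms differed in 5 of 10 genes against 44.2% of all tested genes, with 23.4% higher. Smc3 (0.41, limma adjusted p = 0.00151), Stag1 (0.39, limma adjusted p = 0.0311), Pds5a (0.35, limma adjusted p = 0.0107) and Ctcf (0.31, limma adjusted p = 0.01) were higher in the spliced form, and Rad21 (-0.47, limma adjusted p = 0.00746) was lower. Rad21 was thus lower in the spliced than in the genomic form in each medium, with no overlap. Without replicate 1 of MUNC spliced DM3 the count was 3, since Stag1 (limma adjusted p = 0.139), Pds5a (0.0505) and Ctcf (0.051) were lost and Wapl was gained (-0.37, 0.0332). Stag1 was also lost without genomic replicate 2 or 3 (0.0849 and 0.112).

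The last comparison asked whether the response to differentiation itself differed from that of control cells. For MUNC spliced it did in 4 of 10 genes, each with a smaller fall than in control, where 14.4% of all tested genes were called and 7.43% were higher. The difference was 0.68 on the log2 scale for Smc1a (SE 0.13, limma adjusted p = 0.00369), 0.63 for Smc3 (SE 0.13, limma adjusted p = 0.00562), 0.48 for Ctcf (SE 0.13, limma adjusted p = 0.0215) and 0.38 for Pds5b (SE 0.11, limma adjusted p = 0.0356). Rad21, whose fall was 0.80 in control and 0.60 in MUNC spliced cells, did not pass (0.19, interval -0.19 to 0.58). Mcm5 (2.40) and Mcm2 (2.08), helicase subunits used in DNA replication, led the 3 of 12 cell cycle genes that also fell less, and their part in the result was not tested.

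Smc1a and Smc3 kept their interaction calls in all leave-one-out fits. Ctcf was lost without MUNC spliced DM3 replicate 1 (0.41, limma adjusted p = 0.0527), MUNC spliced GM replicate 2 (0.0561) or control DM3 replicate 2 (0.0586), and Pds5b without any of 7 libraries, namely control GM replicate 2, control DM3 replicates 2 and 3, spliced GM replicates 2 and 3 and spliced DM3 replicates 2 and 3 (limma adjusted p from 0.0543 to 0.085). Pds5b was also lost under equal sums (0.0804), quantiles (0.0667), the compared groups alone (0.076) and no mean-variance trend (0.05005). For MUNC genomic, 0 of 10 genes passed the limma interaction test, where 8.81% of all tested genes were called; 0 of 10 had an unadjusted p under 0.05, and edgeR and DESeq2 on the recovered reads also called 0. The genomic intervals were -0.03 to 0.50 for Ctcf and -0.05 to 0.44 for Pds5b, beside spliced point estimates of 0.48 and 0.38. They were -0.25 to 0.29 for Smc3 and -0.00198 to 0.54 for Smc1a, beside 0.63 and 0.68. The spliced estimates have errors of their own, and both interactions share the control libraries. Whether the spliced and genomic responses differ from each other was not tested.

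Ratios within a library remove its size factor. The ratio of Stag2 to Stag1, in FPM per kb of exon, was 2.12 ± 0.315 (SD, n = 3) in control GM and 4.40 ± 0.267 (SD, n = 3) in control DM3. It went from 2.19 ± 0.231 to 3.49 ± 0.451 (SD, n = 3) in MUNC spliced cells and from 2.37 ± 0.629 to 5.27 ± 0.415 (SD, n = 3) in MUNC genomic cells. The GM and DM3 libraries did not overlap in any of the 3, with the ratio higher in DM3. Pds5b to Pds5a was 1.87 ± 0.219 (SD, n = 3) in control GM and 2.17 ± 0.110 (SD, n = 3) in control DM3, which overlapped. In MUNC genomic cells it went from 1.87 ± 0.0946 to 2.52 ± 0.0652 (SD, n = 3), without overlap. MUNC spliced cells went from 1.79 ± 0.106 to 2.17 ± 0.227 (SD, n = 3). Their libraries were narrowly apart, with the highest in GM at 1.899 and the lowest in DM3 at 1.917.

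The ratio of loader to release factor, Nipbl to Wapl in FPM per kb, was 0.657 ± 0.0571 (SD, n = 3) in control GM and 0.832 ± 0.0450 (SD, n = 3) in control DM3. It was 1.19 ± 0.0714 and 1.41 ± 0.292 (SD, n = 3) in MUNC spliced GM and DM3, and 1.046 ± 0.0890 and 1.06 ± 0.0830 (SD, n = 3) in MUNC genomic GM and DM3. All 12 libraries of the MUNC forms, from 0.968 up, lay above all 6 control libraries, of which the highest was 0.869. The ratios are descriptions and carry no test. Nipbl to Wapl was not among the ratios planned, which were those of the Stag and Pds5 paralogs. By point estimate Nipbl was higher and Wapl lower in both forms in these same libraries. The separation therefore restates those differences and adds no support of its own. How many other pairs of genes separate the libraries in this way was not counted.

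**Figure D5:**
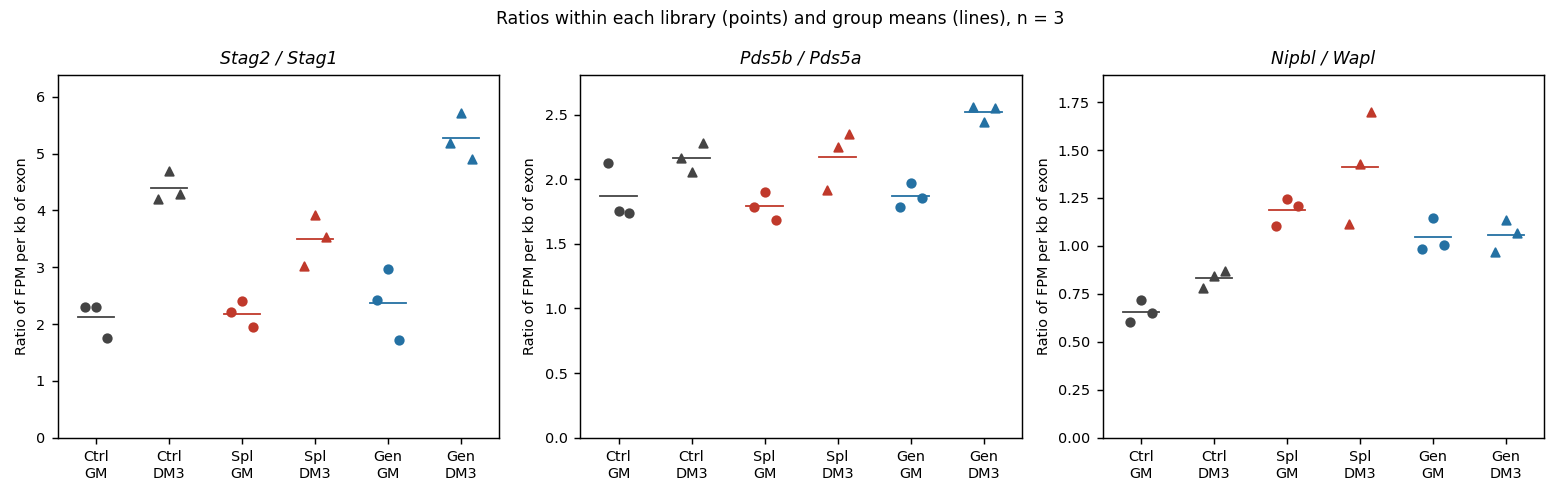
Ratios of FPM per kb of exon within each library (y axes, from 0) for Stag2 to Stag1, Pds5b to Pds5a and Nipbl to Wapl in the 6 groups; points are libraries and lines are means of 3. Stag2 to Stag1 is higher in DM3 than in GM in each kind of cell, and Nipbl to Wapl is higher in the MUNC forms than in control.

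Across the 18 libraries, as a description with the groups pooled, Smc1a, Smc3, Stag1 and Ctcf varied together, with Pearson r on log2(FPM + 1) of 0.947 for Smc1a with Smc3, 0.933 for Smc1a with Stag1 and 0.918 for Smc3 with Ctcf. Stag2 ran apart, at -0.29 with Stag1 and 0.644 with Wapl. The libraries share group and replicate number, so these values mostly carry the differences between groups. Of all tested genes outside the 10, the patterns most like Ctcf were Gspt1 (r = 0.982) and Nup93 (0.979), those most like Rad21 were Nfyb (0.965) and Bag4 (0.958), and those most like Nipbl were Tnrc6b (0.916) and Zfp148 (0.914), each over 18 libraries.

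The order of the groups differed between genes. Smc1a and Smc3 ran control GM, MUNC genomic GM, MUNC spliced GM, MUNC spliced DM3, MUNC genomic DM3 and control DM3 from high to low, where the first pair and the last pair overlapped and the other neighbours did not. Ctcf was highest in the 3 GM groups, which overlapped, followed by MUNC spliced DM3, MUNC genomic DM3 and control DM3, of which the last 3 did not overlap each other. For Stag2 and Nipbl every pair of neighbours overlapped.

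In the authors' deposited table for control DM3 against GM, 7 of the 10 genes had an adjusted p under 0.05, all lower. The authors' deposited tables for the MUNC forms called 6 genes, all higher, in spliced DM3, 4, all higher, in genomic DM3, Wapl in spliced GM and Nipbl in genomic GM. The share of all genes called in the authors' deposited tables is not given here. These counts are therefore not set against a background and serve only to compare calls gene by gene. The calls that differed from limma's were Smc1a and Nipbl in spliced GM, Pds5b in genomic GM, Wapl in spliced DM3 (adjusted p of 0.0525 in the authors' deposited table) and Smc1a, Nipbl and Pds5a in genomic DM3, with the same sign each time.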

How the data were processed

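Polyadenylated RNA of 18 C2C12 libraries in 6 groups was measured by RNA-seq, and groups were taken from the sample titles. The authors' deposited table holds a signal in FPM, and 100% of its values were whole reads (to within 0.05 of a read) over a library size factor. Their deposited comparison tables give log2 fold changes, p-values and, as scores, mean counts and test statistics, per the file headers; the scores were not used here. STAR, HTSeq, DESeq2 and mm10 are named in the submitters' processing notes, without versions or roles, and the annotation and strand setting are not given in the sources used here. Smc1a, Stag1 and Ctcf overlap genes on the other strand, whose reads could be mixed in. Coordinates and exon lengths are from GENCODE M21 on GRCm38, the assembly mm10 names.

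The filter kept 13869 of 35275 genes, those reaching 0.5 FPM in 3 or more libraries. They were fitted with limma (version 3.58.1, R 4.3.3) as log2 of FPM plus a pseudocount of 1, with a mean per group, all 18 libraries together and a mean-variance trend. Calls needed a Benjamini-Hochberg adjusted p below 0.05. Of 11 comparisons 9 set 2 groups against each other and 2 are interactions. The limma script was tested on simulated data. Intervals are 95% intervals from the same fit. Alternatives were pseudocounts of 0.1 and 0.5, no filter or 5 FPM, equal sums, quantiles, the compared groups alone, a replicate block, no trend, edgeR 4.0.16 and DESeq2 1.42.0 on the recovered reads, and leaving out each library. All 10 genes are named; of the related lists, at most the 2 largest changes per list and comparison are given with values. The 10 genes and the lists were chosen with earlier results of these data known. Replicate numbers come from the sample titles. Residuals of same-numbered libraries correlated above 0.1 in all 3 pairs for 6 of the 9 comparisons of 2 groups (r from 0.171 to 0.727). The numbers were taken as pairing the samples there, although what a number marks is not given in the sources used here. The values given are from the fit without a block, which leaves that pairing out. In these 6 comparisons the blocked value stands beside a result whose call it changes, and for the others the changed calls are listed in the closing section. The 6 comparisons are control DM3 against GM, each MUNC form against control in each medium, and the 2 forms against each other in GM.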

Additional observations from a re-analysis of the deposited data

Results flagged for a closer look

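The response to differentiation differed between MUNC spliced and control cells for 4 genes by the limma interaction test. The difference in log2 change was 0.68 for Smc1a (limma adjusted p = 0.00369), 0.63 for Smc3 (limma adjusted p = 0.00562), 0.48 for Ctcf (limma adjusted p = 0.0215) and 0.38 for Pds5b (limma adjusted p = 0.0356), a smaller fall than in control for each. Without MUNC spliced DM3 replicate 1, which is high in cell cycle genes, Ctcf was at 0.41 (limma adjusted p = 0.0527). Pds5b was not called under equal sums (limma adjusted p = 0.0804), quantiles (0.0667), the compared groups alone (0.076) or no mean-variance trend (0.05005), nor in the fits without any of 7 single libraries (0.0543 to 0.085). Ctcf was also not called without MUNC spliced GM replicate 2 (0.0561) or control DM3 replicate 2 (0.0586).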

How the results depend on the processing

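Of the 110 results (10 genes in 11 comparisons), 45 were called, and none of the called changed direction under any alternative. Fitting the compared groups alone gave 3046 genes called in MUNC spliced DM3 against GM, 1 member in MUNC spliced against control in GM, 0 in MUNC genomic against control in GM, 1 in MUNC spliced against MUNC genomic in GM, and 1214 genes in the interaction of MUNC spliced with differentiation. The replicate block gave 8 members in MUNC spliced against control in GM, 5 in MUNC spliced against MUNC genomic in GM, and 3868 and 2265 genes in the spliced and genomic interactions. For the comparisons not taken as paired, the block gave 7 members each in MUNC spliced DM3 against GM and MUNC spliced against MUNC genomic in DM3, and 5 and 0 in the interactions. The members it added were Smc3 (limma adjusted p = 0.0281) and Stag2 (0.0374) in MUNC spliced DM3 against GM. Between the forms in DM3 they were Stag2 (0.0276) and Wapl (0.00774), and in the spliced interaction Stag1 (0.0358). Of the 18 libraries 17 correlated best with their own number, a hint from the data and not the design. DESeq2 gave 5 members in MUNC spliced against control in GM and 5 in MUNC genomic against control in DM3. Quantile scaling gave 5 members in MUNC genomic against control in DM3, quantile and equal sums gave 1 each in MUNC spliced against MUNC genomic in GM, and edgeR gave 777 genes in the genomic interaction. The share of all tested genes called moves with the setting. With the block it was 46.6% for MUNC spliced against control in GM and 47% for the forms in GM. For the other member counts here it is not given, so they are not set against a background.

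Leaving out each library gave ranges of members called of 7 to 8 (control DM3 against GM), 2 to 6 (MUNC spliced DM3 against GM), 6 to 7 (MUNC genomic DM3 against GM), 1 to 4 (MUNC spliced against control in GM), 0 to 3 (MUNC genomic against control in GM), 5 to 7 and 1 to 3 (spliced and genomic against control in DM3), 1 to 2 and 3 to 5 (the forms in GM and DM3) and 2 to 5 (spliced interaction). Genes called ranged from 1063 to 2434 in the spliced interaction, lowest without control DM3 replicate 3, and from 784 to 1345 in the genomic interaction, lowest without control DM3 replicate 2. The spliced interaction had 2 members without MUNC spliced GM replicate 2 or control DM3 replicate 2. The share of all tested genes called in each of these fits is not given beside the member counts. The causes were not tested.

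Direction changed only for uncalled log2 changes near 0. For Wapl in MUNC spliced DM3 against GM, edgeR gave 0.0015 and DESeq2 0.0187, and in MUNC genomic DM3 against GM equal sums gave -0.0032 and edgeR -0.0269. edgeR gave -0.0101 for Nipbl in MUNC genomic DM3 against GM, -0.0213 for Ctcf in MUNC spliced against control in GM, 0.0411 for Nipbl in the spliced interaction. In MUNC genomic against control in GM, equal sums, quantiles and DESeq2 gave 0.0411, 0.0744 and 0.0061 for Smc1a and 0.0597, 0.0891 and 0.0232 for Smc3, and equal sums gave 0.0259 for Ctcf. In MUNC spliced against MUNC genomic in GM, quantiles gave 0.0193 for Nipbl and 0.0295 for Pds5b, and edgeR and DESeq2 gave -0.0345 and -0.0320 for Pds5a. Equal sums gave -0.0045 for Stag2 in the spliced interaction. In the genomic interaction, equal sums and quantiles gave -0.0183 and -0.0270 for Smc3, and quantiles and edgeR 0.0072 and 0.0119 for Pds5a.

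Leaving out 1 library at a time gave -0.115 to 0.0788 for Wapl in MUNC spliced DM3 against GM, -0.1044 to 0.0863 for Nipbl and -0.0923 to 0.1135 for Wapl in MUNC genomic DM3 against GM, and -0.0329 to 0.0619 for Ctcf in MUNC spliced against control in GM. In MUNC genomic against control in GM the ranges were -0.0471 to 0.0032 (Smc1a), -0.0558 to 0.0444 (Smc3), -0.1866 to 0.034 (Stag1), -0.0966 to 0.1773 (Stag2) and -0.101 to 0.0382 (Ctcf). Against control in DM3 they were -0.2144 to 0.0108 (Rad21, spliced), -0.0348 to 0.0527 (Smc3, genomic) and -0.0519 to 0.178 (Stag2, genomic). Between the forms in GM they were -0.1946 to 0.0086 (Nipbl), -0.0289 to 0.0791 (Pds5a) and -0.0112 to 0.1169 (Ctcf). In the spliced interaction they were -0.0611 to 0.1874 (Stag2), -0.1462 to 0.0438 (Nipbl) and -0.0115 to 0.1824 (Wapl), and in the genomic interaction -0.0333 to 0.0669 (Smc3), -0.2243 to 0.0253 (Stag1), -0.1113 to 0.1627 (Stag2) and -0.1237 to 0.0981 (Pds5a).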
